A study of Mus musculus with 8 samples.

Results

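The sex difference of normal mouse liver was described from 4 arrays, 2 of wild-type males (XY) and 2 of wild-type females (XX), replicates 3 and 4 of each sex. The mice were of the C57BL6 strain and 10 to 11 weeks old, and total RNA came from whole liver. The series holds 8 arrays in 4 groups; the other 4 arrays carry the label of a liver-specific Bcl-6 deficiency, 2 of each sex, at the same age and strain, and entered the choice of the genes tested, the estimate of the spread and the test of the difference between genotypes. Nothing in the labels says whether the 2 samples of a sex were separate animals or pools, or gives the time of day, feeding or stage of the oestrous cycle, and what the p-values weigh is therefore the spread among these samples alone. The genes described here are autosomal and were well above background, by the scanner software's own mark, on both arrays of at least 1 wild-type sex. They numbered 15096, of which 13612 have a symbol, among 23869 genes tested in the whole series. A further 485 genes above background lie on the X or Y chromosome and 7295 have no chromosome in the gene table; both sets were left out.

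Liver differs between the sexes mainly through the pattern of growth hormone from the pituitary. Males release it in pulses with long gaps and females nearly without a gap, and each pulse activates the transcription factor STAT5b through the growth hormone receptor and the kinase JAK2. Factors such as BCL6, more abundant in male liver, and CUX2, more abundant in female liver, repress part of the genes of the other sex. The genes concerned are best known for the metabolism of steroids, drugs and fatty acids, for bile acid transport and for proteins secreted into plasma and urine.

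Each value below is the log2 signal of a gene's brightest probe relative to the 75th percentile of its array, so a difference of 1 between the sexes is 2-fold, and levels were compared between arrays but not between genes. Between 28073 and 30624 of 56605 probes were well above background on the 8 arrays, and no probe was saturated; the number of arrays limits the precision. The 2 arrays of a sex correlated over genes with r = 0.991 for males and 0.990 for females. Of 12 hepatocyte markers all were measured, with Alb, the serum albumin gene, at 10.1 and 9.60 in males and 9.68 and 9.62 in females. The Bcl6 probe was not lower on the arrays labelled Bcl6-deficient, with means of 4.59 in males and 4.43 in females, so this probe gives no check of the genotype labels; where the probe lies relative to the deleted part is not given in the sources used here.

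Of the 15096 autosomal genes, 590 (3.91%) passed the test between the sexes, by limma with a Benjamini-Hochberg adjusted p below 0.05 over all 23869 genes tested. In males 264 (1.75%) were higher and in females 326 (2.16%). Over all 23869 genes tested the shares were 3.36% in either direction, 1.52% toward males and 1.84% toward females, and the median difference, male minus female, was 0.05 both over the autosomal genes and over all genes tested. At least 2-fold differences were found for 340 of the 590 (2.25% of the autosomal genes, and 2.05% over all genes tested), 147 higher in males and 193 in females, and at least 8-fold differences for 30 and 37. In all 590 the male and female arrays did not overlap; without any test, 50.8% of the autosomal genes showed such a separation with 2 arrays a side. Leaving out each of the 8 arrays in turn kept 173 of the 590 genes past the threshold every time, 65 higher in males and 108 in females. The lowest counts came without male replicate 3, with 98 genes toward males and 160 toward females, and without male replicate 4 (123 and 199) or female replicate 4 (132 and 198).

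The largest male excess among genes above background in both sexes was that of Cyp4a12b, a cytochrome P450 that hydroxylates fatty acids such as arachidonic acid. Its male arrays read 6.73 and 6.82 and its female arrays 1.26 and -1.69, a difference of 6.99 ± 0.97 (SE, adjusted p = 0.0063, and 0.0509 without male replicate 3). The neighbouring copy Cyp4a12a read 6.14 and 6.24 in males against 0.49 and -1.85 in females (6.87 ± 0.78, adjusted p = 0.00219). In both genes the male arrays lay close together, while female replicate 3 was over 2 log2 units above female replicate 4; the copies are near identical and their probes may share signal. Nat8f5, of the N-acetyltransferase family, was more even within each sex, with 3.64 and 3.33 in males and -2.65 and -3.06 in females (6.34 ± 0.40, adjusted p = 7.93e-05). Gm4956, a predicted gene, read 4.67 and 4.48 in males and -1.34 and -1.25 in females (5.87 ± 0.20, adjusted p = 1.26e-06). Elovl3, which lengthens fatty acids, read 6.82 and 6.46 against 1.62 and 0.79 (5.43 ± 0.28, adjusted p = 1.87e-05). For these 3 genes the gap between the sexes exceeded the gap within either sex many times over. The other genes among the 15 with the largest male excess differed by 3.36 to 6.20 and included the transcribed serpin pseudogene Serpina4-ps1 (6.17), Cyp2d34 (4.09), the amino acid synthesis enzyme Asns (3.92, adjusted p = 0.0058 and 0.0564 without male replicate 3) and the terminal complement component C6 (3.36).

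The largest female excess among genes above background in both sexes was that of Cyp2b9, a P450 of drug and steroid oxidation. Female arrays read 7.66 and 7.79 and male arrays -0.38 and 1.14 (-7.34 ± 0.38, male minus female, adjusted p = 2.13e-05). Cyp2b10, the copy known as the target of the xenobiotic receptor CAR, read 7.50 and 7.68 in females against 0.95 and 2.38 in males (-5.93 ± 0.36, adjusted p = 6.24e-05). Its other probe gave -4.67. The female arrays of both genes lay close together and male replicate 4 was the higher of the male pair. Acot3, a peroxisomal thioesterase that releases fatty acids from coenzyme A, read 2.27 and 3.63 in females and -2.18 and -1.71 in males (-4.89 ± 0.43, adjusted p = 0.000508). Vldlr, the receptor for very low density lipoprotein, read 0.99 and 2.21 against -2.74 and -1.78 (-3.86 ± 0.41, adjusted p = 0.00155), and its other probe gave -2.47. The metal-binding protein gene Mt1 read 7.98 and 7.60 in females and 4.01 and 4.59 in males (-3.49 ± 0.20, adjusted p = 5.13e-05), and its 2 probes gave differences of -5.67 and -3.49. None of these genes had overlapping sexes. Further members of the 15 were Cyp17a1, a steroid hydroxylase of androgen synthesis (-3.33), the adenosine-forming nucleotidase Nt5e (-3.10) and the acyltransferase Acnat2 (-2.99). Hamp2, a copy of the iron hormone hepcidin, differed by -3.68 ± 0.69 (adjusted p = 0.0246), with 6.20 and 8.04 in females and 2.35 and 4.52 in males; its adjusted p was 0.0992 without male replicate 3, 0.0908 without female replicate 4 and 0.0503 without replicate 3 of the females labelled Bcl6-deficient.

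**Figure D1:**
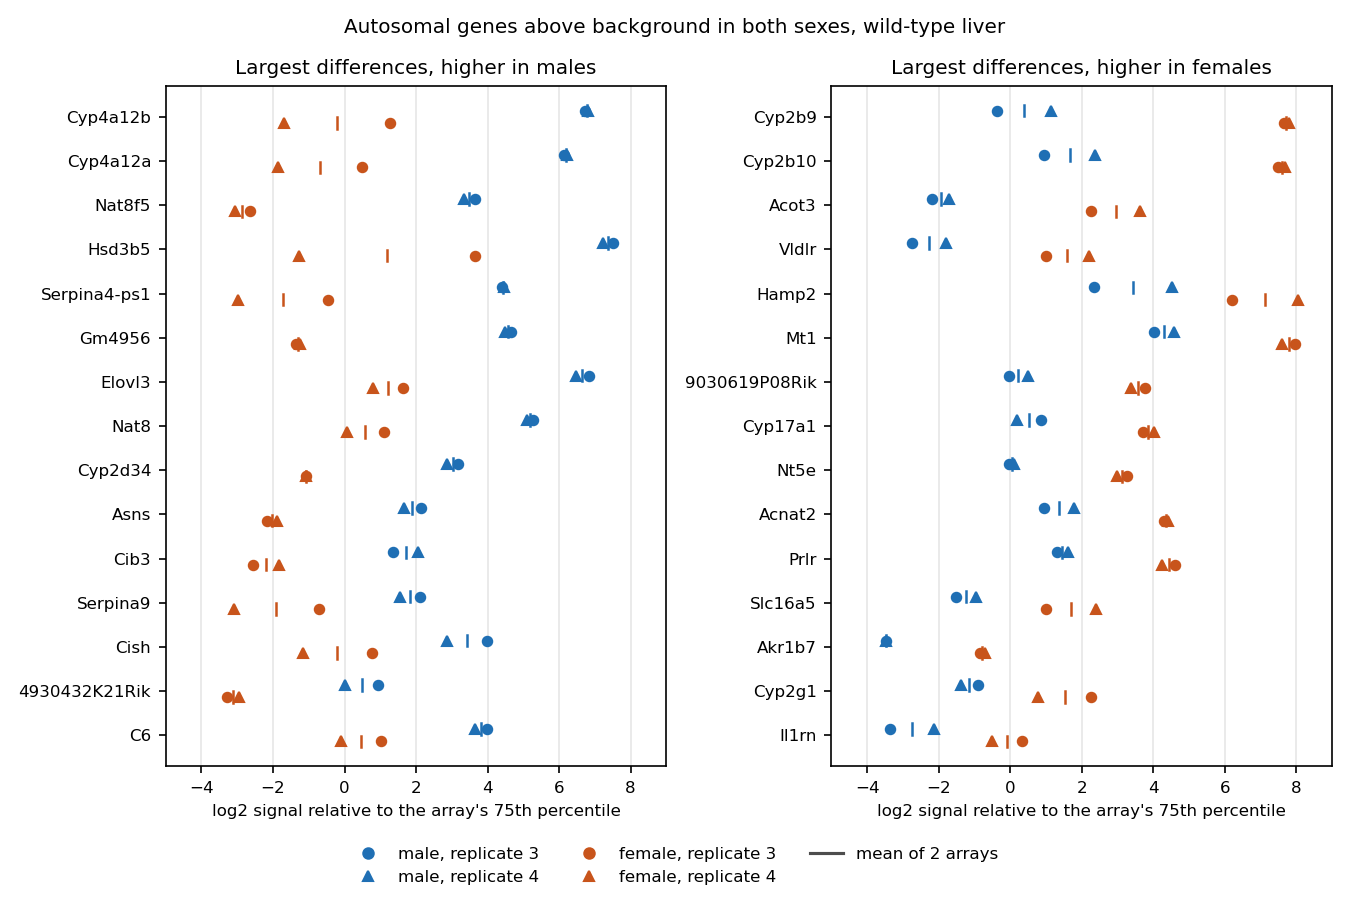
Log2 signal above or below the array's 75th percentile for the 15 genes with the largest excess in males (left) and in females (right) among autosomal genes past adjusted p = 0.05 and above background on all 4 wild-type arrays; circles are replicate 3, triangles replicate 4, blue males, orange females, and a tick marks the mean of 2 arrays. Male and female points do not overlap in any of the genes, and the female pair of Hsd3b5 (3.64 and -1.28) lies farthest apart.

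Some genes were measured in 1 sex only. Of the 590 genes, 51 were not well above background on either array of the dimmer sex, 38 of them higher in females and 13 in males. For these the fold is a lower bound. It sets the mean of the brighter sex over the dimmest signal that counted as above background on each array of the dimmer sex. Where the gene's own signal on such an array was higher, that signal was used instead. Cyp2b13, next to Cyp2b9 on chromosome 7, was at 6.10 and 6.75 in females and not well above background in males, which is at least 1327-fold (adjusted p = 3.67e-07). The organic anion transporter gene Slc22a26 was at 4.28 and 3.65 in females, at least 240.9-fold (adjusted p = 2.43e-08). Hao2, a peroxisomal hydroxyacid oxidase, was at 1.69 and 1.90, at least 53.5-fold (adjusted p = 2.43e-08). In these 3 genes the 2 females differed by less than 1 log2 unit. Larger gaps between the females were seen in A1bg, a plasma protein gene of the immunoglobulin superfamily, at 5.93 and 3.30 (at least 378-fold, and at least 152.3-fold without female replicate 3), and in Cyp3a44, a steroid-oxidising P450, at 3.80 and 2.36 (at least 130.4-fold, and 79.1-fold without female replicate 3).

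Measured in males only, the bounds were smaller. Gm12718, a predicted gene, was at 0.39 and -0.14 in males (at least 21.2-fold higher, adjusted p = 0.0015). Lama3, a laminin chain, was at -0.61 and -0.51 (at least 13.2-fold, adjusted p = 0.000332), and Capn8, a calpain protease, at -0.52 and -0.89 (at least 12-fold, adjusted p = 0.000343). Moxd1, a monooxygenase-like gene, was at 1.22 and -2.06, at least 14.6-fold higher with both males and at least 4.69-fold without male replicate 3, when its adjusted p was 0.0567; without female replicate 4 it was 0.0758. Nat8f6, beside Nat8f5, was at -1.41 and -1.78 (at least 6.46-fold, adjusted p = 0.00436).

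**Figure D2:**
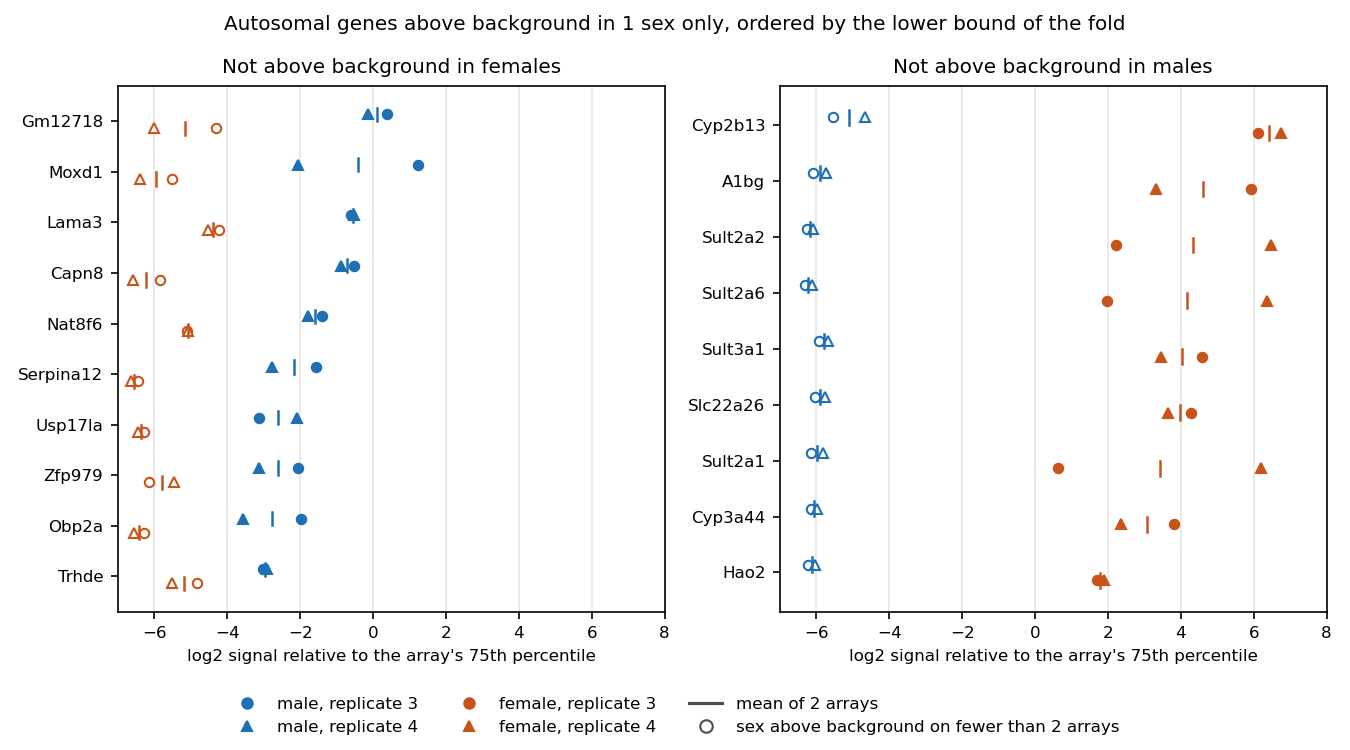
Log2 signal above or below the array's 75th percentile for 10 autosomal genes past adjusted p = 0.05 that were not above background in females (left, higher in males) and 9 that were not above background in males (right, higher in females), all among those with a symbol and the largest bounds, ordered by the lower bound of the fold; open symbols are arrays of the sex that was not above background. The lower bounds drawn run from 2.50-fold (Trhde) to 21.2-fold (Gm12718) on the left and from 53.5-fold (Hao2) to 1327-fold (Cyp2b13) on the right, and the female points of the Sult2a genes lie far apart.

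Growth hormone signalling was read first in its receptor and kinase. Ghr, the growth hormone receptor, read 5.76 and 5.57 in males and 5.44 and 5.41 in females (0.24 ± 0.15, adjusted p = 0.40), and Jak2 differed by -0.22 ± 0.13 (adjusted p = 0.391). The STAT genes did not pass either: Stat5b read 3.27 and 3.31 in males against 3.71 and 3.47 in females (-0.30 ± 0.13, adjusted p = 0.25), and Stat5a differed by 0.20 with its brighter probe and -0.66 with the other. The genes that STAT5 induces as its own brakes did differ. Cish, a suppressor of cytokine signalling, read 3.98 and 2.87 in males and 0.77 and -1.17 in females (3.62 ± 0.57, adjusted p = 0.011, and 0.0835 without male replicate 3). Socs2, which limits growth hormone signalling, read 3.34 and 3.58 against 0.97 and 0.24 (2.86 ± 0.39, adjusted p = 0.00605, and 0.0507 without male replicate 4). In both genes every male array was above both female arrays, and female replicate 3 was above replicate 4. Igf1, the hormone through which growth hormone acts on growth, read 7.60 and 7.34 in males and 7.82 and 7.31 in females (-0.09 ± 0.17, adjusted p = 0.80), so the sexes overlapped, as they did for its plasma partner Igfals (-0.20 ± 0.17, adjusted p = 0.55). Igfbp1, an insulin-repressed binding protein of IGF1, was higher in females at 6.80 and 7.89 against 4.81 and 5.38 (-2.25 ± 0.32, adjusted p = 0.00654, and 0.0592 without male replicate 3). Of the 28 measured genes of the growth hormone list, 3 were higher in males (Cish, Socs2, Socs7) and 2 in females (Irs2, Igfbp1), with a median difference of 0.00; the male count was 1 without either male array.

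Among 32 hormone and nuclear receptor genes, 3 favoured females and 2 males. Prlr, the prolactin receptor, read 4.60 and 4.26 in females and 1.30 and 1.61 in males (-2.98 ± 0.15, adjusted p = 1.84e-05); its 3 probes differed by -2.98 to -1.35. Esr1, oestrogen receptor alpha, read 2.81 and 2.83 against 1.56 and 1.17 (-1.46 ± 0.16, adjusted p = 0.00188). Both sexes were tight in these genes. The epidermal growth factor receptor Egfr read 6.09 and 6.48 in males and 5.12 and 3.64 in females (1.90 ± 0.40, adjusted p = 0.0405); leaving out any array other than female replicate 3 took its adjusted p to between 0.0557 and 0.173. Ahr, the dioxin receptor, was higher in females by 1.04 ± 0.18 on the log2 scale (adjusted p = 0.0164, at most 0.0956 without an array), and Adrb3, a beta-adrenergic receptor, higher in males by 1.44 ± 0.27 (adjusted p = 0.023, at most 0.129 without an array).

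Of 35 liver transcription factor genes, 9 favoured males and 3 females, with a median difference of 0.26. Onecut1, or HNF6, a factor that acts with STAT5 on sex-dependent P450 genes, read 4.48 and 4.33 in males and 1.81 and 1.94 in females (2.53 ± 0.18, adjusted p = 0.000183). Ikzf4, a zinc finger repressor, differed by 2.11 ± 0.23 (adjusted p = 0.00174), and the pioneer factor Foxa1 by 1.40 ± 0.20 (adjusted p = 0.00662, and 0.0592 without male replicate 3). Its relative Foxa2 read 4.54 and 4.86 in males and 4.01 and 3.18 in females and did not pass (1.11 ± 0.26, adjusted p = 0.057), and Hnf4a, which specifies hepatocytes, was at 0.15 ± 0.16 (adjusted p = 0.639). Cux2, the female repressor, was at -0.56 and -0.03 in females and not well above background in males, at least 12.6-fold (adjusted p = 4.03e-06). Trim24, a corepressor of retinoic acid receptors, read 2.86 and 3.60 in females and 1.45 and 1.90 in males (-1.55 ± 0.25, adjusted p = 0.0133, and 0.0926 without male replicate 3), and Tox, a high mobility group factor, differed by -1.53 ± 0.26 (adjusted p = 0.0168, at most 0.106 without an array). The other probe gave -1.12 for Trim24 and -2.51 for Tox. Bcl6 itself did not separate the sexes. It read 3.20 and 3.55 in males and 2.02 and 4.17 in females (0.28 ± 0.57, adjusted p = 0.821), with both males between the 2 females. The male count of this list was 4 without either male array and 5 without female replicate 4.

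**Figure D3:**
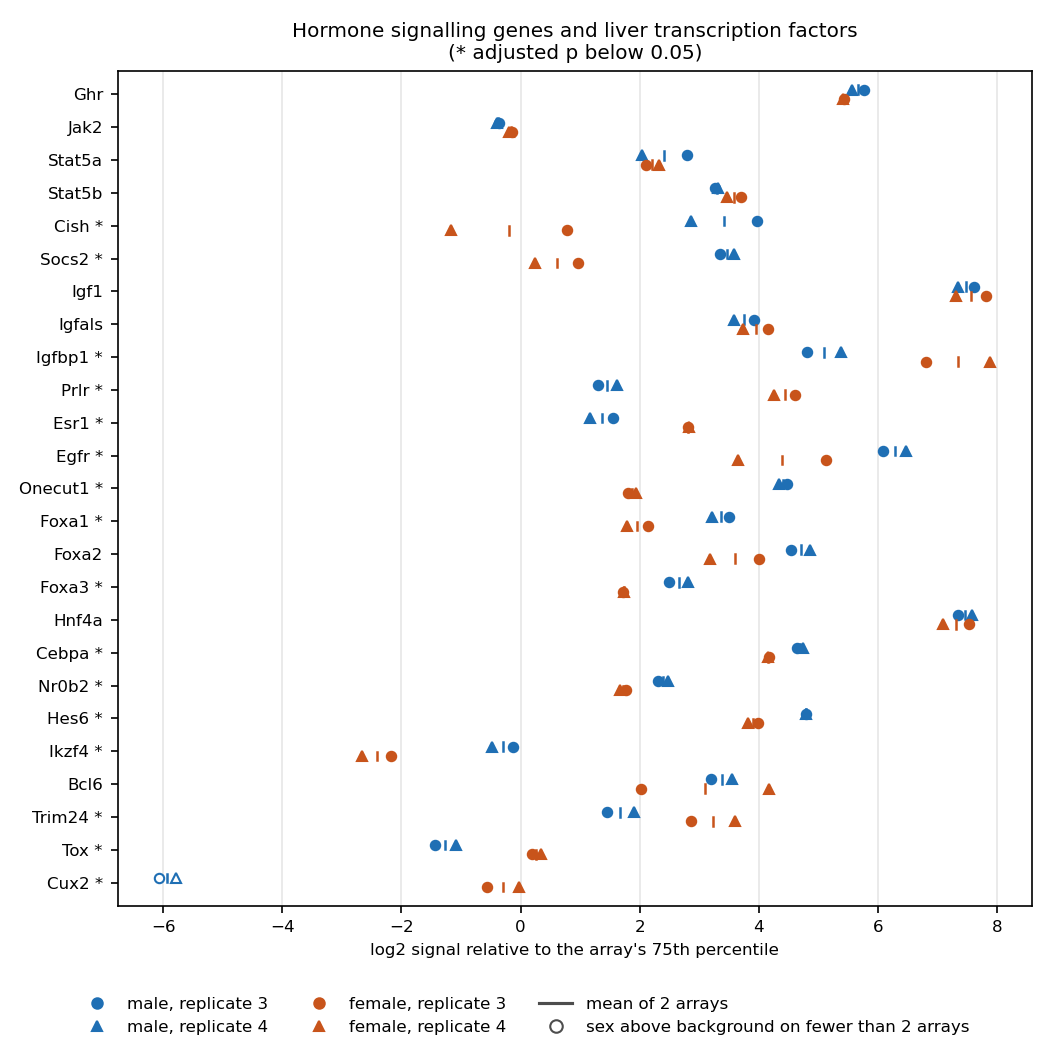
Log2 signal above or below the array's 75th percentile for genes of growth hormone signalling, hormone receptors and transcription factors; circles are replicate 3, triangles replicate 4, blue males, orange females, open symbols a sex not above background on both arrays, and an asterisk marks adjusted p below 0.05. Ghr, Jak2, Stat5a, Stat5b, Igf1 and Bcl6 carry no asterisk, while Cish, Socs2, Onecut1, Prlr, Esr1 and Cux2 do, and the female Bcl6 points (2.02 and 4.17) enclose the male ones.

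The promoters of genes with the largest differences were read for the STAT5 motif, TTC and GAA with any 3 bases between them, which reads the same on both strands. It is shown because STAT5 carries the growth hormone signal; a match is a description of the letters, not a bound site. In the RefSeq promoter table (GRCm38.p6), which spans 250 bases before to 50 bases after each start, 8.3% of 32851 promoters held the motif. Not every gene had a promoter there. Among the genes with the largest differences or bounds, 16 higher in males and 18 higher in females had one. The motif was found in 3 of 17 promoters of the former and 5 of 25 of the latter. Of the 590 genes, 192 higher in males and 238 higher in females had a promoter there. The motif was found in 11.2% of 260 promoters of the former and 7.79% of 321 of the latter. The Cish promoter, which holds it 2 times close to the start, and those of 3 genes higher in females, Prlr, A1bg and Slc22a26, are given 5′ to 3′ on the gene's strand, with the motif in capitals.
Cish, chr9:107296409-107296708, plus strand: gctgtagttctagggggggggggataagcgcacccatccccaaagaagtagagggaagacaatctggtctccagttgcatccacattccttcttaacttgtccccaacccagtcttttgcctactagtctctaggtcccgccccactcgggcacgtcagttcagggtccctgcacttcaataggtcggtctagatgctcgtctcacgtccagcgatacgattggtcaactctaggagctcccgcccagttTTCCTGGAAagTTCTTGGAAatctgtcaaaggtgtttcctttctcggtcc
Prlr, chr15:10223656-10223955, plus strand: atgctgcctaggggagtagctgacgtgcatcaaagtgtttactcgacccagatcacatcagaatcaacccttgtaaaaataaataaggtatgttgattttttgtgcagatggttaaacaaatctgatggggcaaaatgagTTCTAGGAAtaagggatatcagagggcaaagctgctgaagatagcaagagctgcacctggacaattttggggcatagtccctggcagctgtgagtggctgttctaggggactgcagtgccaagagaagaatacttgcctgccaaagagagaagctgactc
A1bg, chr15:60921221-60921520, minus strand: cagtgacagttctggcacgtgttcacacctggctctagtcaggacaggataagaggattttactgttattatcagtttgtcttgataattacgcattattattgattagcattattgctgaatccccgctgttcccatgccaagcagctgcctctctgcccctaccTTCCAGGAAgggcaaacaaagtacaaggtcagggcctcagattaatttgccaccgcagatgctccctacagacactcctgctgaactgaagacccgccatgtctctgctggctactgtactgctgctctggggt
Slc22a26, chr19:7802618-7802917, minus strand: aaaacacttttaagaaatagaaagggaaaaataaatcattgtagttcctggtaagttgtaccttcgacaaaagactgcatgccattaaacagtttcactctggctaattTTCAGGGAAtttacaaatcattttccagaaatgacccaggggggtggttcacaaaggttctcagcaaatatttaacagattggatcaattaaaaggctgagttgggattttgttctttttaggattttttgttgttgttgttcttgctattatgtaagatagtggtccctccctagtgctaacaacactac
The first motif begins at the start itself in Cish, 110 bases before it in Prlr, 84 in A1bg and 141 in Slc22a26.

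Cytochrome P450 genes of the Cyp2 families, which oxidise drugs, steroids and fatty acids, were divided between the sexes. Of 41 measured, 10 favoured females and 4 males, counts that stayed at 8 to 10 and at 4 without any 1 array, and the median difference was -0.04. Besides the Cyp2b genes the female side held Cyp2c68, at 9.12 and 8.54 in females and 6.89 and 6.85 in males (-1.96 ± 0.19, adjusted p = 0.000968), its neighbours Cyp2c69 (-1.88), Cyp2c40 (-1.68) and Cyp2c67 (-1.57), and the testosterone hydroxylase Cyp2a4, at 8.30 and 8.46 against 7.25 and 7.29 (-1.11 ± 0.11, adjusted p = 0.00127). In the 4 Cyp2c genes female replicate 3 was the higher female, and neither female reached the male range. On the male side stood Cyp2d9, which hydroxylates testosterone, at 7.57 and 7.54 in males and 4.41 and 4.28 in females (3.21 ± 0.14, adjusted p = 5.52e-06), Cyp2d34 (4.09), Cyp2u1 (2.26) and Cyp2d11 (1.15). Of 11 Cyp1 and Cyp3 genes only Cyp3a44 passed; Cyp3a41a, often described as female-biased, read 8.91 and 8.88 in males and 9.16 and 9.03 in females (-0.20 ± 0.12, adjusted p = 0.402). In the Cyp4 list, of 13 genes, 3 were higher in males (1 without male replicate 3) and Cyp4a10, a target of the fatty acid sensor PPARA, was higher in females at 5.82 on both arrays against 2.91 and 4.46 (-2.13 ± 0.38, adjusted p = 0.0207, at most 0.0762 without an array). Cyp4a14 read 2.96 and 1.67 in females and -2.70 and 0.12 in males and did not pass (-3.60 ± 0.85, adjusted p = 0.0608).

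Enzymes of conjugation were split by class. Sulfotransferases, which add sulfate to steroids, bile acids and phenols, had 9 of 17 measured genes higher in females and none in males, with a median difference of -1.21 and 7 to 10 such genes without any 1 array. Sult3a1 was at 4.59 and 3.45 in females and not well above background in males (at least 250.3-fold, adjusted p = 7.02e-06). Sult1a1, the phenol sulfotransferase, read 7.44 and 7.41 against 6.08 and 6.42 (-1.18 ± 0.13, adjusted p = 0.00158). Papss2, which makes the sulfate donor and is no sulfotransferase itself, is counted among the 9. It read 7.26 and 7.12 against 5.81 and 6.15 (-1.21 ± 0.13, adjusted p = 0.00155). The 4 neighbouring Sult2a genes, hydroxysteroid sulfotransferases, were higher in females but with females far apart. Sult2a1 was at 0.64 and 6.20 (at least 164.7-fold, and at least 24.0-fold without female replicate 4; adjusted p = 0.00672, and 0.0585 without male replicate 3), and Sult2a2 at 2.22 and 6.46 (at least 312.7-fold, and at least 71.9-fold without female replicate 4; adjusted p = 0.00112). Sult2a6 was at 1.97 and 6.37 (at least 277.7-fold, and at least 60.4-fold without female replicate 4), and Sult2a4 at -1.43 and 4.34 (at least 42.2-fold, and at least 5.71-fold without female replicate 4; adjusted p = 0.0244, and 0.117 and 0.111 without male replicates 3 and 4). In each of the 4 genes female replicate 4 was the higher array by over 4 log2 units, and near-identical copies may share signal here. Glucuronosyltransferases went to males, with 3 of 15 genes higher there and none in females (1 without either male array or female replicate 4), led by Ugt2b1 at 5.44 and 5.29 against 4.32 and 3.79 (1.31 ± 0.16, adjusted p = 0.00362).

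The N-acetyltransferase genes of the Nat8 cluster and their relatives were higher in males for 4 of 15 measured, none in females, and no array changed that count. Nat8 read 5.26 and 5.10 in males and 1.11 and 0.06 in females (4.59 ± 0.31, adjusted p = 0.000114), and Keg1, a glycine acyltransferase-like gene, 4.73 and 4.66 against 3.23 and 2.40 (1.88 ± 0.23, adjusted p = 0.00334). Of 22 glutathione transferase genes 2 favoured males and 3 females. Gstp1, the pi-class enzyme, read 8.43 and 8.10 in males and 5.06 and 5.07 in females (3.20 ± 0.13, adjusted p = 4.73e-06). Its neighbour Gstp2 differed by 0.76 ± 0.12 (adjusted p = 0.0121, and 0.052 and 0.0771 without female replicate 4 and male replicate 3), while Gstt3 was higher in females by 1.69 ± 0.18 on the log2 scale (adjusted p = 0.00153). Flavin monooxygenases and aldehyde and aldo-keto enzymes counted 5 of 32 higher in females and 2 in males, Aox3 and Ephx2. This male count was 0 without male replicate 3 and 1 without 6 other arrays. Ephx2 (adjusted p = 0.0474) passed in none of the 8 fits that left out an array. The female side included Fmo1 (-1.0 ± 0.11), Fmo2 (-1.93 ± 0.21), the quinone reductase Nqo1 (-1.57 ± 0.18) and the aldose reductase relative Akr1b7 (-2.70 ± 0.18). These 4 genes had adjusted p values below 0.05 without any 1 array. Carboxylesterases, which split esters of lipids and drugs, gave 3 of 17 higher in females, Ces1b (-0.84 ± 0.14), Ces1g (-0.81 ± 0.17) and Ces1c (-0.53 ± 0.11), and Ces4a in males (2.68 ± 0.59, adjusted p = 0.0461, at most 0.209 without an array); none of the 3 passed without male replicate 3 (adjusted p = 0.0883, 0.163 and 0.15).

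Steroid hormone metabolism had 3 of 35 genes higher in males and 4 in females. Hsd3b5, which reduces dihydrotestosterone in male liver, read 7.51 and 7.24 in males and 3.64 and -1.28 in females (6.20 ± 1.23, adjusted p = 0.0308). Its females were nearly 5 log2 units apart, and the adjusted p was 0.14 without male replicate 3, 0.123 without male replicate 4 and 0.0524 to 0.0599 without 3 of the arrays labelled Bcl6-deficient. Cyp7b1, the oxysterol and androgen hydroxylase of the second route of bile acid synthesis, read 7.42 and 7.24 in males and 5.16 and 3.58 in females (2.96 ± 0.42, adjusted p = 0.0067, and 0.0592 without male replicate 3). Cyp17a1 read 3.70 and 4.03 in females and 0.87 and 0.20 in males (adjusted p = 6.24e-05), and Rdh16f2, a retinol and steroid dehydrogenase, 6.85 and 7.05 against 5.02 and 5.58 (-1.65 ± 0.18, adjusted p = 0.00198). Only the Cyp17a1 and Rdh16f2 calls held without each array; the male count of the list was 0 without male replicate 3.

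Bile acid synthesis showed few differences. Cyp7a1, its rate-limiting enzyme, read 1.96 and 3.33 in males and 2.14 and 3.08 in females (0.04 ± 0.49, adjusted p = 0.978), replicate 4 being the higher in both sexes, and Cyp8b1, which makes cholic acid, differed by 0.26 ± 0.21 (adjusted p = 0.522). Of 18 genes 2 were higher in males (Cyp7b1 and Scp2) and Cyp39a1, an oxysterol hydroxylase, in females (-1.11 ± 0.15, adjusted p = 0.00588). The male count was 0 without male replicate 3, 1 without 6 other arrays and 3 without female replicate 3. The female count was 2 without male replicate 4. Scp2 (0.57 ± 0.11, adjusted p = 0.0292) passed in 1 of 8 fits that left out an array. Transporters of bile acids and organic ions had 8 of 32 genes higher in females (5 without male replicate 3) and 2 in males (4 without female replicate 3, and 1 without either male array or female replicate 4). Slco1a4, an uptake carrier of bile acids and steroid conjugates, read 2.92 and 2.94 in females and 0.45 and 0.63 in males (-2.39 ± 0.15, adjusted p = 7.93e-05). Abcb1a, the multidrug exporter, read -0.90 and -0.43 against -3.19 and -2.70 (-2.28 ± 0.26, adjusted p = 0.00204), and Slc22a27 and Slc22a29, on chromosome 19 like Slc22a26, were at least 30.6-fold and at least 11.6-fold higher in females, or 18.8-fold and 7.13-fold without female replicate 4. Abcg2, the exporter of urate and drug conjugates, was higher in males at 6.01 and 5.96 against 4.64 and 4.45 (1.44 ± 0.18, adjusted p = 0.0035). Slco1a1, the uptake carrier often found higher in males, read 3.85 and 3.88 in males and 3.45 and 1.1 in females and did not pass (1.59 ± 0.68, adjusted p = 0.246).

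Of 53 genes of fatty acid oxidation and acyl-CoA handling, 9 were higher in females and none in males, with a median difference of -0.13 and 6 to 10 such genes without any 1 array. Beside Acot3 these were its neighbours Acot4 (-1.85 ± 0.24, adjusted p = 0.0046) and Acot5 (-1.56 ± 0.30, adjusted p = 0.0271, at most 0.127 without an array), Acot2, Acnat2, the peroxisomal transporter Abcd2 (at least 21.8-fold), Pdk4, which turns fuel use from glucose to fat, and the uncoupling protein genes Ucp2 and Ucp3. Pdk4 read 1.48 and 1.74 in females and -0.42 and -0.31 in males (-1.98 ± 0.20, adjusted p = 0.00122). Of 49 genes of fatty acid synthesis and storage, 2 were higher in males, Elovl3 and the lipid droplet gene Fitm1 (1.28 ± 0.21, adjusted p = 0.0126, at most 0.09 without an array). The fatty acid carrier Cd36 was higher in females at 2.12 and 2.32 against 0.52 and 0.95 (-1.49 ± 0.20, adjusted p = 0.005), as were Elovl5 (-0.93 ± 0.15) and the desaturase Fads1 (-0.76 ± 0.13), both lost without male replicate 3 (adjusted p = 0.0893 and 0.0834) or female replicate 4 (0.0616 and 0.0725). Genes of the main route of synthesis did not pass: Acly differed by -0.52 ± 0.25 (adjusted p = 0.305), Fasn by -0.81 ± 0.27 (0.149), Scd1 by 0.19 ± 0.30 (0.771) and their regulator Srebf1 by -0.95 ± 0.36 (0.206). The fatty acid sensor Ppara was at 0.12 ± 0.28 (adjusted p = 0.843).

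In cholesterol synthesis and uptake, 4 of 32 genes were higher in females and none in males; 28 of the 32 differences were below 0, with a median of -0.36 against 0.05 over all genes tested. They included Fdft1, the squalene synthase (-0.79 ± 0.15, adjusted p = 0.0273), Cyp51 (-0.77 ± 0.13, adjusted p = 0.0154) and Sc5d (-0.53 ± 0.11, adjusted p = 0.0389). None of these 3 passed without male replicate 3, and the Sc5d call was lost whichever array was left out. The count was 1 without either female array and 2 without either female labelled Bcl6-deficient. Lipoprotein genes gave 2 of 28 higher in males, Angptl8, an inhibitor of lipoprotein lipase (1.19 ± 0.18, adjusted p = 0.00901), and Apoa1, the main protein of high density lipoprotein (0.71 ± 0.12, adjusted p = 0.0162), both lost without male replicate 3 (adjusted p = 0.0567 and 0.0882) and without male replicate 4 (0.0648 and 0.0818), and Apoa1 also without female replicate 4 (0.0639). The female side held Vldlr alone.

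Amino acid metabolism had 8 of 72 genes higher in females and 2 in males, but the female count fell to 0 without male replicate 3 and to 1 without female replicate 4 or without either female labelled Bcl6-deficient, and was 2 without male replicate 4 and 3 without female replicate 3. The largest female differences that passed were Mat1a, the methionine adenosyltransferase (-0.84 ± 0.13, adjusted p = 0.0123), and Oat, the ornithine aminotransferase (-0.75 ± 0.14, adjusted p = 0.0256). On the male side Asns read 2.13 and 1.65 in males and -2.17 and -1.90 in females, and its 2 probes agreed (3.71 and 3.92); Aadat, of lysine and kynurenine breakdown, differed by 0.86 ± 0.12 (adjusted p = 0.00576). In the glucose list G6pc, which releases glucose from its phosphate, was higher in females (-1.03 ± 0.19, adjusted p = 0.0241, at most 0.135 without an array) and Pfkfb3, an activator of glycolysis, in males (1.41 ± 0.30, adjusted p = 0.0425, at most 0.177). The other 37 of 39 genes did not pass.

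Secreted proteins differed in few of their genes. All 11 measured genes of the major urinary proteins, pheromone carriers made in liver, had a difference above 0, from 0.17 to 1.0 with a median of 0.30, and only 1 passed. With quantile normalization 9 were above 0 and 2 below, with a median of 0.068. That was Mup20, at 8.62 and 8.20 in males and 7.41 and 7.40 in females (1.0 ± 0.20, adjusted p = 0.0301), and its second probe gave 2.31. It was lost without male replicate 3 (adjusted p = 0.151) or either female array (0.0861 and 0.0978), and probes of these near-identical genes may share signal. Of 31 serpins 3 were higher in males and 3 in females. The cluster genes Serpina4-ps1, Serpina9 and Serpina12 formed the male group, with Serpina4-ps1 at 4.41 and 4.47 in males and -0.47 and -2.99 in females (adjusted p = 0.00207); the calls of the other two ended without male replicate 3 (adjusted p = 0.134 and 0.115) and without male replicate 4 (0.0929 and 0.052). Serpina6, the corticosteroid-binding globulin, was higher in females at 7.0 and 7.36 against 5.25 and 5.88 (-1.61 ± 0.20, adjusted p = 0.0036). Of 54 complement and coagulation genes C6 was higher in males, at 3.98 and 3.66 against 1.01 and -0.10 (adjusted p = 0.000815). A1bg and coagulation factor F7 (-0.63 ± 0.13, adjusted p = 0.0321) were higher in females. The F7 call was lost without any array other than female replicate 4. Without 1 wild-type array its difference ran from -0.80 to -0.46. A1bg, a plasma protein gene of the immunoglobulin superfamily, is counted in the complement and coagulation list though it belongs to neither system. In the iron and metal list Mt1 and Hamp2 were higher in females, while Hamp, hepcidin itself, read 7.69 and 8.12 in females and 7.47 and 7.06 in males (-0.63 ± 0.18, adjusted p = 0.107).

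**Figure D4:**
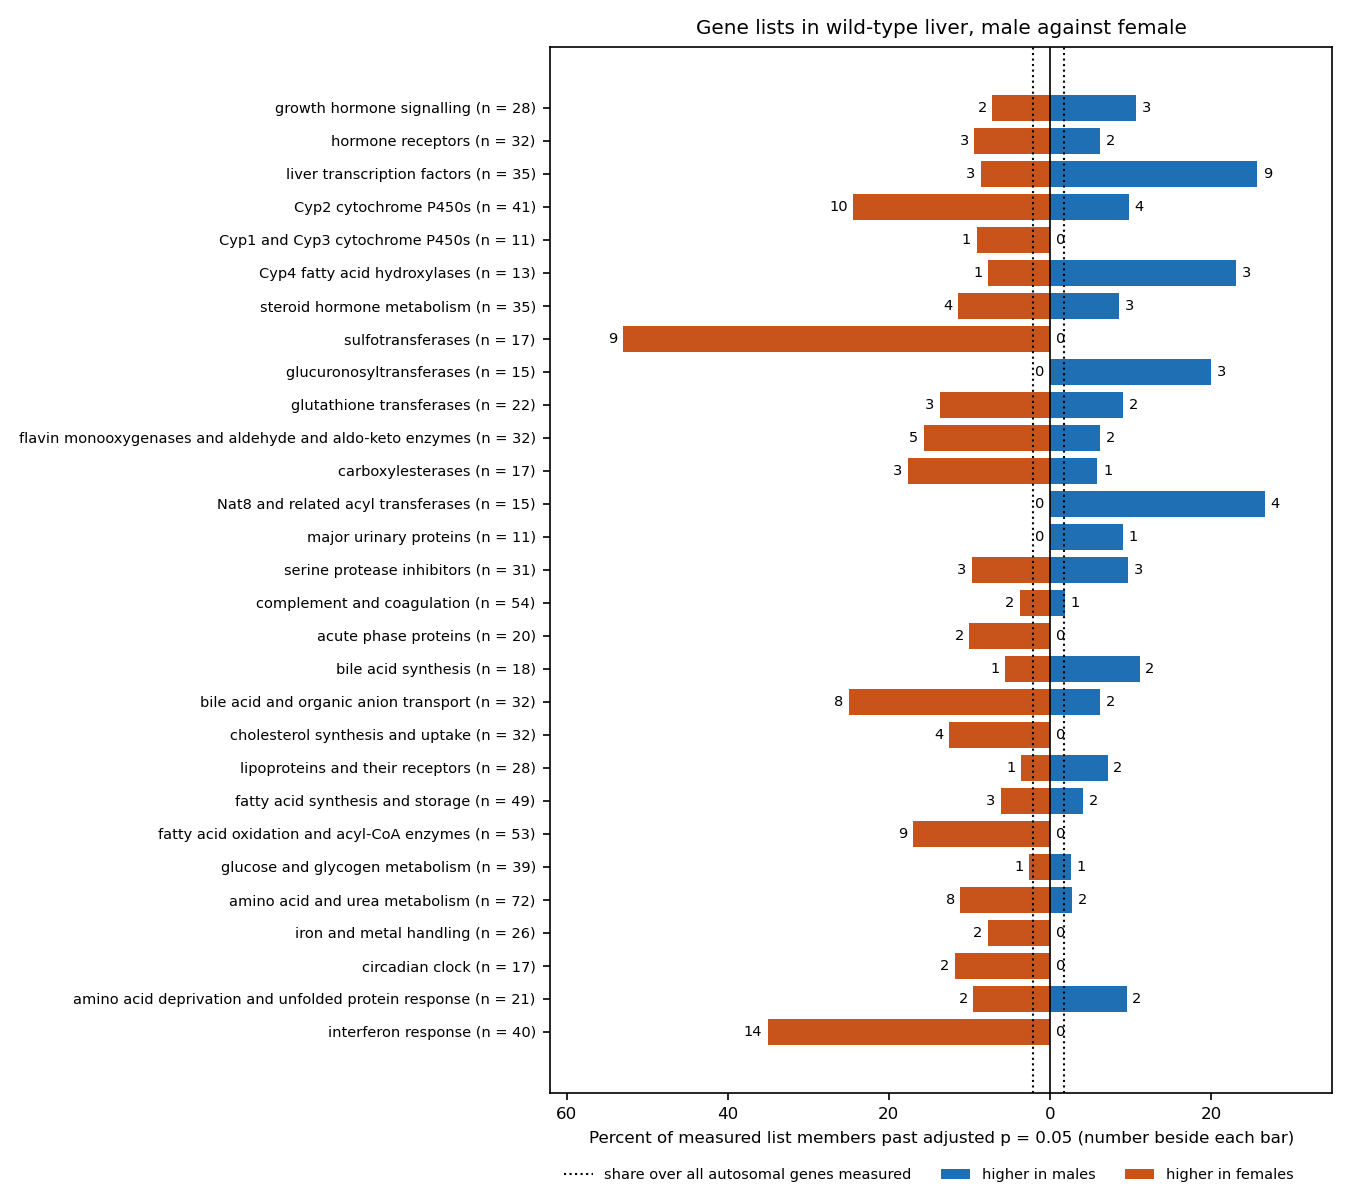
Percent of the measured autosomal genes of each list past adjusted p = 0.05, to the right for genes higher in males and to the left for genes higher in females, with the number of genes beside each bar; dotted lines mark the shares over all 15096 genes, 1.75% and 2.16%. The longest bars are the sulfotransferases (9 of 17) and the interferon list (14 of 40) on the female side and the Nat8 list (4 of 15) and the transcription factors (9 of 35) on the male side.

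Some of the genes that differed lay next to each other. Among the 567 genes with a symbol, 49 fell into 14 runs of 3 or more neighbours that were higher in the same sex. Neighbours here follow each other among the measured autosomal genes with a symbol, so genes not measured may lie between them. The number of runs was not compared with that of a random order. Runs higher in males included Nat8f6, Nat8f5 and Nat8 on chromosome 6 and Serpina9, Serpina12 and Serpina4-ps1 on chromosome 12. Further ones lay on chromosomes 4 and 9. Lama3, Ttc39c and Cabyr on chromosome 18 formed another, as did Hao1, Tmx4 and Plcb1 on chromosome 2. The runs on chromosomes 18 and 2 join genes of unlike families, with differences from 2.39 to 3.82 and from 1.05 to 1.30. Among those higher in females were the runs Cyp2b10, Cyp2b13, Cyp2b9, Cyp2a4 and Cyp2g1 and the Sult2a genes on chromosome 7, Acot4, Acot3 and Acot5 on chromosome 12, the Cyp2c genes on chromosome 19, and Slc25a27, Cyp39a1 and Rcan2 on chromosome 17. The longest had 6 genes on chromosome 15, from Ly6e to 9030619P08Rik, and held Ly6c1 and Ly6c2, surface proteins of leukocytes and endothelium, with Ly6c2 at 5.59 and 5.13 in females and 2.55 and 3.1 in males (-2.54 ± 0.27, adjusted p = 0.00149). The Ly6c1 probes disagreed in size, at -2.49 and -0.42. Near-identical copies within a run may share probe signal, so they may not count as separate genes. Another run, Sult3a2, Sult3a1 and Rsph4a on chromosome 10, joins the sulfotransferases to Rsph4a, a gene of motile cilia, at -2.04 and -2.42 in females and not well above background in males (at least 3.30-fold, adjusted p = 0.000385).

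Interferon-induced genes were higher in females for 14 of 40 and in males for none, with 39 differences below 0 and a median of -0.66. Gbp3, a guanylate-binding protein, read 1.75 and 1.92 in females and -0.05 and -0.24 in males (-1.98 ± 0.17, adjusted p = 0.000468), and Ifit1 read 0.16 and 0.08 against -1.20 and -1.18 (-1.31 ± 0.16, adjusted p = 0.00289). The count was 4 without male replicate 3, 7 without either female array and 9 without male replicate 4. All 13 measured markers of Kupffer cells and macrophages had differences below 0 and none passed the test (median -0.54; 1 was above 0 with normexp background correction, and 1 passed with that or with quantile normalization), and the log2 of their summed signal was 7.20 and 7.54 in males and 7.86 and 7.89 in females. The 13 endothelial markers were likewise all below 0 (median -0.32; summed 6.80 and 6.96 in males, 7.30 and 7.10 in females), and hepatocyte markers had a median of 0.22, or -0.0052 with quantile normalization (summed 12.7 and 12.4 in males, 12.4 and 12.3 in females). The part of these cells in the interferon and Ly6 differences was not tested. In whole liver, fewer cells of a type and less RNA per cell cannot be told apart. Of 9 markers of T and natural killer cells 7 had differences below 0 (median -0.75, or -0.18 with normexp background correction). Their summed signal went the other way, at 3.57 and 3.33 in males and 2.71 and 3.14 in females. Among them 1 passed, Cd4, higher in males at 3.24 and 2.79 against 1.74 and 2.04 (1.12 ± 0.22, adjusted p = 0.0273). Its call was lost without male replicate 3 or either female array. Without 1 wild-type array its difference ran from 0.90 to 1.35. Of 3 gonadal markers Inhba, an activin subunit, was higher in males at 1.92 and 1.83 against 0.65 and 0.68 (1.21 ± 0.16, adjusted p = 0.00487). No measured marker of stellate cells (14), bile duct cells (5), B cells (6), neutrophils (6), erythroid cells (4), adipocytes (3), pancreatic acinar cells (5) or kidney tubule (1) passed.

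The median gap between the 2 females, without regard to sign, was 0.194 log2 units in the 590 genes and 0.191 in all 15096. Wide gaps were held by a larger share of the 590. Among the 590 genes, 45 (7.63%) differed at least 2-fold between the female arrays, against 384 of the 15096 (2.54%). Between the male arrays the numbers were 17 (2.88%) and 370 (2.45%). Of the 62 genes at least 4-fold higher in males, 46 read higher in female replicate 3 than in replicate 4, with a median gap of 0.45. The males did likewise: 44 read higher in male replicate 3 than in male replicate 4, with a median gap of 0.226. The female gaps included Hsd3b5, the Cyp4a12 genes, Serpina4-ps1, Cish and Socs2. Bcl6 and the Sult2a genes were higher in female replicate 4, and A1bg, higher in females, in replicate 3. Of the 65 genes at least 4-fold higher in females, 40 read higher in female replicate 4 and 52 in male replicate 4. Both sexes thus leaned to replicate 3 in the first set and to replicate 4 in the second. The labels do not say in what the animals of a sex differed, and each array took part in the difference between the sexes, so these gaps are given as values with no test.

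**Figure D5:**
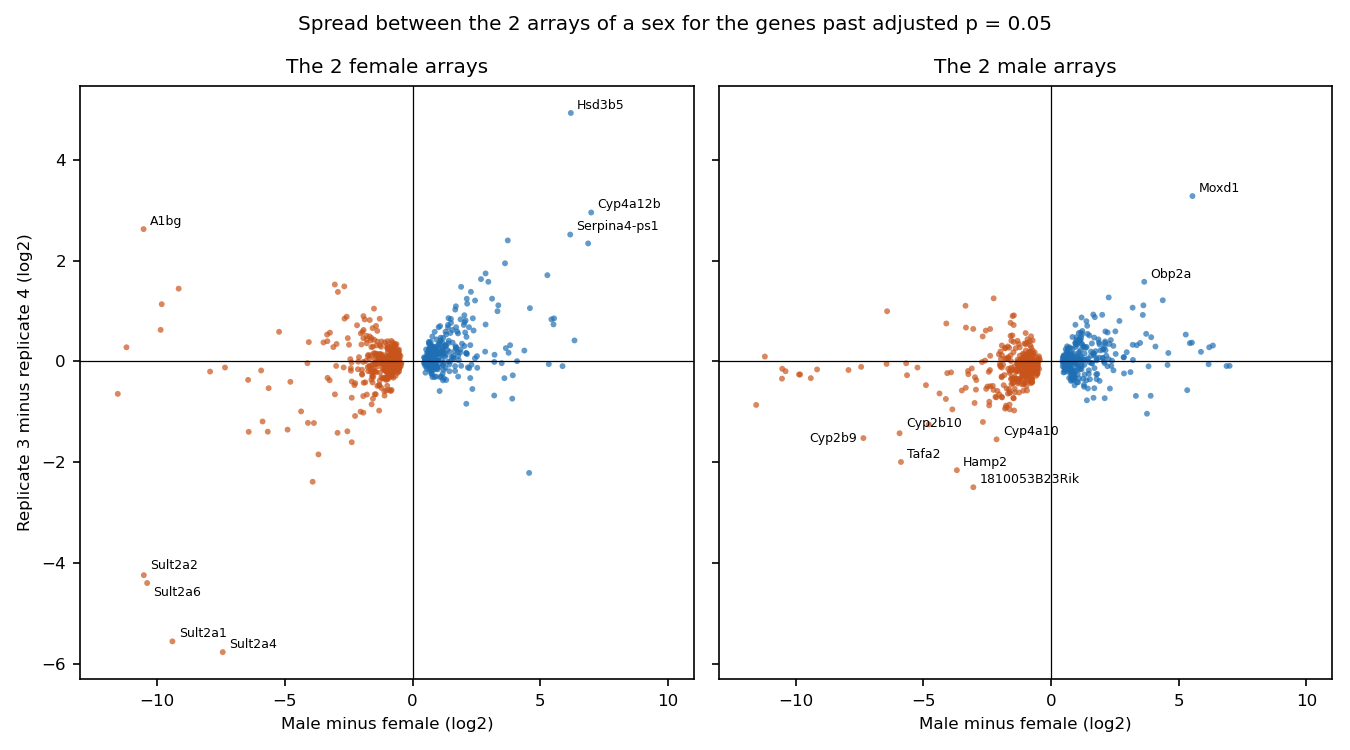
Replicate 3 minus replicate 4 (log2) for the 2 female arrays (left) and the 2 male arrays (right), against the difference male minus female, for the 590 autosomal genes past adjusted p = 0.05; blue genes are higher in males, orange genes in females, and for genes below background in a sex the difference is the fitted one. Hsd3b5 is highest and the Sult2a genes are lowest among the females, and Moxd1 is the farthest among the males.

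The arrays labelled Bcl6-deficient served to ask whether the sex difference was the same under both labels. The difference of the differences passed the test for 143 of the 15096 autosomal genes (0.947%, and 0.742% over all genes tested), and for 134 of the 590 genes that differed in wild type, 35 higher in males and 99 in females. These 134 were chosen for a difference in wild type, which enters the interaction too, so their number is a description. Both comparisons share the wild-type arrays. For Nt5e the difference, male minus female, was -3.10 in wild type and -0.31 under the Bcl6-deficient label, and for Gm4956 it was 5.87 and 1.42. Of the 590 genes, 350 had a difference of the same sign under both labels. The test was passed in both genotypes by 2, Susd4 (1.78 and -1.89) and Bmp7 (1.19 and -1.21), each with opposite signs. Both were named after their values were seen. Neither number was set beside the same over all genes tested, so they describe the 590 genes without a comparison.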

How the data were processed

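Per the labels, total RNA from whole liver was labelled with Cy3 and hybridised to 1-colour Agilent arrays. Per the file headers the spot intensities, background-subtracted, came from Agilent Feature Extraction 11.5.1.1 (9.1.3.1 in the submitters' processing notes), all 8 arrays on 1 slide and in 1 scan, so neither separates the sexes; batches of dissection, extraction or labelling are not given in the sources used here. The deposited log2 value table equals, on each array, the mean log2 intensity of a probe's spots minus 1 constant (7.07 to 7.62), with r = 1 and no centring by gene. Probes were named through their RefSeq accession (GRCm38.p6; the array design states mm9), which gave 22911 gene symbols; a gene is its brightest probe. Probes marked as outliers on an array (0 to 4) were left out there.

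The 8 arrays entered 1 limma (3.58.1, R 4.3.3) fit as 4 group means, with an intensity trend, 4 residual and 4.78 prior degrees of freedom, no replicate block, and Benjamini-Hochberg adjustment over 23869 genes at 0.05. SE is that of the fitted difference. Named genes are the 15 largest differences per direction above background on all 4 arrays, up to 10 largest lower bounds, up to 4 per list and direction, genes of roles named in advance, runs of 3 or more neighbours, and the largest gaps within a sex. The script was tested on simulated data. The alternatives were other backgrounds, scalings, filters, fits and probes, a replicate block, and leaving out each array. The members and lists were chosen with earlier results of these data known; no set test was run. Same-numbered arrays of 2 groups deviated together with r from 0.00593 to 0.321. It was 0.0338 for the wild-type sexes, 0.321 for the 2 female groups, and over 0.1 in 2 of 6 pairs of groups. The numbers were not taken to pair the samples, and an effect shared by same-numbered arrays was not tested. Identity between proteins of a family was not analysed here. Single values of some genes that count in the totals are not reported here.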

Additional observations from a re-analysis of the deposited data

Results flagged for a closer look

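The sex difference differed between the genotype labels, by limma's interaction test, for 134 of the 590 autosomal genes that passed in wild type, against 0.947% of all autosomal genes. Among 49 genes with the largest differences or bounds it did so for 31. Both sets were chosen for their wild-type difference, which enters the interaction too. These numbers are therefore a description and cannot be weighed against the share of all autosomal genes. Each value here is the difference male minus female in wild type minus the same under the Bcl6-deficient label, on the log2 scale. For genes not above background in a sex it is a fitted value and no bound. Of genes higher in wild-type males it was 5.99 for Serpina4-ps1, 5.38 for Capn8, 4.74 for Nat8f5, 4.45 for Gm4956, 4.1 for Elovl3, 4.09 for Lama3, 4.07 for Cyp2d34, 3.95 for Nat8f6, 3.83 for Nat8, 3.31 for 4930432K21Rik and 2.78 for C6. Of P450 genes higher in wild-type females it was -11.5 for Cyp2b13, -8.9 for Cyp3a44, -7.26 for Cyp2b9, -5.69 for Cyp2b10 and -3.34 for Cyp17a1. Of conjugation, oxidation and transport genes it was -11.1 for Sult2a2, -10.4 for Sult2a6, -9.45 for Sult3a1, -10.2 for Slc22a26, -8.75 for Hao2, -3.42 for Slc16a5 and -2.89 for Akr1b7. Of lipid enzymes and receptors it was -4.99 for Acot3, -3.43 for Acnat2, -3.78 for Vldlr and -2.56 for Prlr, and of the others -10.4 for A1bg, -3.59 for Mt1, -2.96 for 9030619P08Rik and -2.79 for Nt5e. All of these values have the sign of the wild-type difference, which the choice of genes by that difference favours. The Bcl6 probe gave no check of the genotype labels. Groups of 2 arrays were too small for a test of single arrays.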

How the results depend on the processing

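Counts of genes higher in males, higher in females and differing between genotypes were 264, 326 and 143. They fell to 146, 176 and 63 without a filter on dim probes, and to 156, 172 and 67 without the intensity trend; 147 and 193 of the genes also differed at least 2-fold. Leaving out 1 array gave 98 to 260 genes higher in males, 160 to 301 higher in females and 62 to 146 for the genotypes. For the genotypes the count was 62 and 66 without replicate 3 or 4 of the females labelled Bcl6-deficient, 85 without replicate 4 of the males so labelled and 80 without male wild-type replicate 3. Without female wild-type replicate 3 the split between the sexes turned, and more genes passed toward males than toward females. A fit of the wild-type arrays alone gave 198 and 221, and quantile normalization 218 and 343, which moved the split further to females. Equal medians gave 285 and 306, and normexp background correction 271 and 303, which both narrowed the split. With the replicate number as a block the counts were 354, 398 and 196, and 1 of 164 named genes lost its call; the numbers were not taken to pair the samples. No named gene that passed reversed its direction, but the larger number of genes toward females did not hold in every setting. It turned without female wild-type replicate 3. With limma's unadjusted p below 0.05 the split also leaned the other way, with 1639 autosomal genes toward males and 1475 toward females. Of 42 list medians, none of them tested, 11 changed sign under another scaling or background. With quantile normalization serine protease inhibitors went from 0.15 to -0.06, complement and coagulation from 0.13 to -0.07 and lipoproteins from 0.10 to -0.05. Of 51 list counts above 0, 40 moved by over 1.5 times without some array, 35 of them without male wild-type replicate 3. Of the 164 named genes that passed, 72 lost the call without male wild-type replicate 3, 54 without the intensity trend and 48 without the filter; the cause was not tested. Signal over background limits the 51 genes given as bounds.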

Other observations

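In the circadian list, of 17 genes, Per1 read 2.68 and 2.40 in females and 0.45 and 1.41 in males (-1.61 ± 0.32, adjusted p = 0.0292, at most 0.119 without an array). Nfil3, a repressor that opposes DBP, was higher in females by 0.57 ± 0.12 on the log2 scale (adjusted p = 0.0413). Its call was lost whichever array was left out. Without 1 wild-type array its difference, male minus female, ran from -0.66 to -0.48. Dbp read 2.46 and 3.75 in males and 1.94 and 0.77 in females and did not pass (1.75 ± 0.45, adjusted p = 0.0799). Among genes of amino acid deprivation and the unfolded protein response, Asns and Xbp1 (0.91 ± 0.17, adjusted p = 0.0208, at most 0.105 without an array) were higher in males, and Vldlr and Gdf15 (-0.73 ± 0.14, adjusted p = 0.0256, at most 0.129) in females, of 21 measured. In the acute phase list, of 20 genes, Il1rn (-2.67 ± 0.46, adjusted p = 0.0177, and a difference of -1.25 with its other probe) and Orm3 (-1.93 ± 0.30, adjusted p = 0.0114) were higher in females. Both calls were lost without female replicate 3 and also without male replicate 3, and that of Orm3 without male replicate 4 as well. Without 1 wild-type array the differences ran from -3.27 to -2.06 for Il1rn and from -2.16 to -1.70 for Orm3. Fgf21 and Sult1e1 were each above background on 1 male and 1 female array only and so are not among the 15096 genes.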
